A study of Homo sapiens with 8 samples.

Results

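The G1 cyclins and the CDK inhibitors that restrain their kinases were examined in RCC cells cultured with or without branched-chain amino acids (BCAA). The set of 10 genes was fixed by symbol and holds the D-type cyclins CCND1, CCND2 and CCND3, the E-type cyclins CCNE1 and CCNE2, the CIP/KIP inhibitors CDKN1A and CDKN1B, and the INK4 inhibitors CDKN2A, CDKN2B and CDKN2C. Of these, 9 were listed among the 25431 genes of the 769-P table and 8 among the 24190 genes of the CAKI-1 table, out of 27776 genes listed in either. Bulk RNA-seq was performed on these established human RCC cell lines after 16 h with BCAA (isoleucine and leucine at 0.38 mM each, valine at 0.17 mM) or without BCAA. There were 2 libraries in each of the 4 groups, 8 in all. Before treatment, 769-P cells were kept in RPMI 1640 and CAKI-1 cells in MEM, so cell line and growth medium cannot be told apart. The medium without BCAA is described as RPMI 1640 made up from a powder lacking amino acids, with dialyzed serum. The sources do not say whether the 2 libraries of a group came from separate cultures, and p-values therefore measure the spread between these libraries, which may be technical.

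D-type cyclins bind CDK4 and CDK6, and E-type cyclins bind CDK2. Both complexes phosphorylate the retinoblastoma protein and release E2F transcription factors, which carries a cell from G1 into S phase. CIP/KIP proteins bind cyclin-CDK complexes broadly, whereas INK4 proteins bind CDK4 and CDK6 themselves, and loss of CDKN2A and CDKN2B on chromosome arm 9p is a common lesion in cancer.

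Each library held 30979773 to 64256834 reads on listed genes. In 769-P the libraries with BCAA were the deeper ones, with 55829324 and 64256834 reads against 39062721 and 40130258. The deposited value, called normalised reads here, is the number of reads on a gene divided by a size factor of its library. Because the size factors were computed separately for each cell line, levels are compared between lines in RPM, reads scaled to the total on listed genes of the library, or in RPKM, which is RPM divided by the kilobases of exon and also serves to compare genes. Reads or normalised reads of both lines stand beside each other in places and are named as such. Of 9 kidney and ccRCC markers, 7 lay above the floor in each line, where the floor is 3 reads or fewer in every library of the line. LHX1 was among them with few reads, 12 to 58 per library in 769-P and 16 to 22 in CAKI-1. PAX8, a renal lineage factor, was expressed in both lines, whereas CA9 was listed in neither, NDUFA4L2 was at the floor in 769-P and PAX2 was not listed in CAKI-1. Of 6 markers of blood, endothelial, liver and muscle cells, none was above the floor in CAKI-1 and 4 were in 769-P, where their summed level was 0.324 to 0.666 RPM without BCAA and 0.358 to 0.405 with BCAA. Among them, CD3E and CDH5 were listed in neither line.

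With BCAA, the cyclins CCND3, CCNE1 and CCNE2 and the inhibitor CDKN2C rose in both cell lines, and the inhibitor CDKN1A fell in both. CCND1, the most abundant D-type cyclin, fell in 769-P and did not pass the test in CAKI-1. In 769-P, 5 of the 9 members tested rose, 2 fell and 2 did not pass, at an adjusted p of 0.05 (limma on log2(normalised reads + 1), Benjamini-Hochberg adjustment over all genes tested). Of all 22391 genes tested there, 38.4% passed, 20.3% as higher and 18.2% as lower. In CAKI-1, 4 of the 7 members tested rose, 1 fell and 2 did not pass, where 19.9% of 21347 genes passed, 10.8% as higher and 9.05% as lower. Most members are well expressed, and among genes with a mean of at least 100 normalised reads the share that passed was 63% in 769-P and 34.2% in CAKI-1. The median log2 fold change was 0.56 over the 9 members in 769-P and 0.78 over the 7 in CAKI-1, beside -0.02 and -0.01 over all genes tested. The libraries with BCAA lay wholly above or below those without for 9 of 9 members in 769-P and for 6 of 7 in CAKI-1, as they did for 67% and 57.7% of all genes tested. In these bulk samples, fewer cells in a phase of the cell cycle and less RNA per cell cannot be told apart. With 2 libraries against 2, an exact two-sided permutation test of a single gene cannot give a p below 0.33, so that the p-values below rest on the spread shared across genes in limma.

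**Figure D1:**
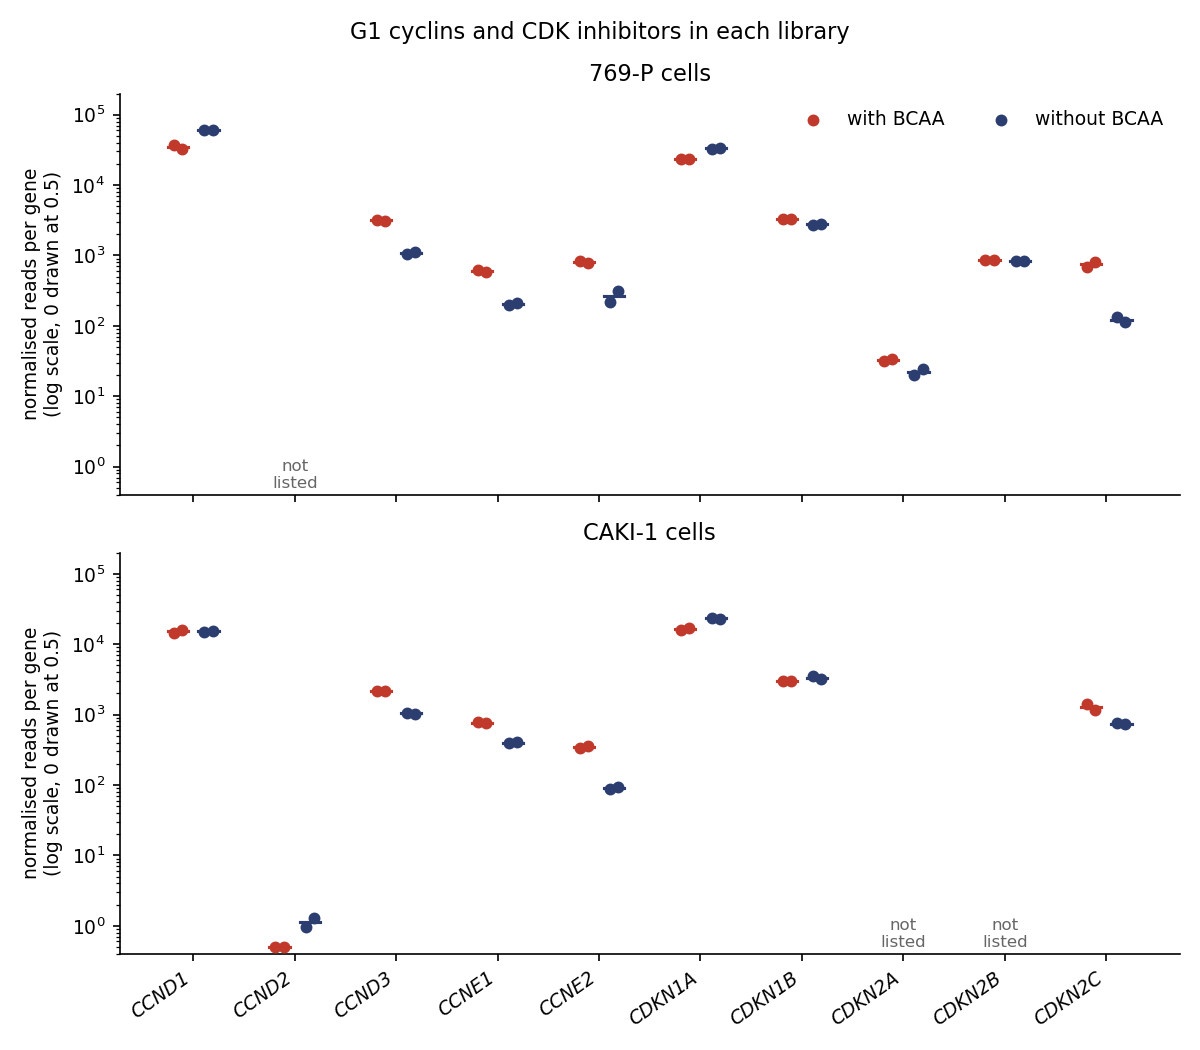
Normalised reads per gene on a log scale for the 10 members (x axis) in 769-P cells (upper panel) and CAKI-1 cells (lower panel), with 1 point per library, red with BCAA and blue without, and a bar at the mean of each group of 2. Within 769-P the points of CDKN2C with and without BCAA lie furthest apart, those of CCND1 in CAKI-1 overlap, and CDKN2A and CDKN2B have no entry in CAKI-1.

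CCND1 (ENSG00000110092; GRCh38 chromosome 11, 69641087-69654474, forward strand) encodes cyclin D1. In 769-P, it had 36642 and 32753 normalised reads with BCAA and 60599 and 60622 without. Both libraries with BCAA lay below both libraries without. It decreased by 42.8% (log2 fold change -0.81, SE 0.05, 95% confidence interval -0.91 to -0.70, adjusted p = 9.66e-08). In CAKI-1, the libraries with BCAA had 14682 and 15994 normalised reads and those without had 14989 and 15549. The CAKI-1 groups overlapped, with a log2 fold change of 0.01 (95% confidence interval -0.12 to 0.14, adjusted p = 0.963). The effect of BCAA on CCND1 differed between the lines by -0.81 on the log2 scale (769-P minus CAKI-1, SE 0.08, adjusted p = 1.25e-05, interaction term in limma). In the annotation, 10.3% of the exon bases of CCND1 are also exon of LTO1 on the opposite strand, and whether the counting used strand is not stated, so reads there cannot be told apart. LTO1 itself had a log2 fold change of -0.64 in 769-P (adjusted p = 7.65e-06) and -0.02 in CAKI-1 (adjusted p = 0.911).

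CCND3 (ENSG00000112576; chromosome 6, 41934933-42050357, reverse strand), which encodes cyclin D3, moved the other way. In 769-P it had 3222 and 3093 normalised reads with BCAA and 1052 and 1108 without. The groups were well apart, a 2.92-fold rise (log2 fold change 1.55, SE 0.06, adjusted p = 2.83e-09). In CAKI-1 the values were 2192 and 2153 with BCAA and 1061 and 1037 without. This was a 2.07-fold rise (log2 fold change 1.05, SE 0.07, adjusted p = 2.84e-06), with no overlap. The rise was larger in 769-P by 0.50 on the log2 scale (SE 0.09, adjusted p = 0.00128, interaction term in limma).

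CCND2 (ENSG00000118971; chromosome 12, 4273772-4305350, forward strand), which encodes cyclin D2, was not expressed at a level these libraries could resolve. It was not listed in 769-P, and in CAKI-1 it had 0 and 0 reads with BCAA and 1 and 1 without. Both CAKI-1 groups were at the floor, so no fold change is given.

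CCNE1 (ENSG00000105173; chromosome 19, 29811898-29824308, forward strand) and CCNE2 encode cyclins E1 and E2, the activating partners of CDK2. In 769-P, CCNE1 had 613 and 574 normalised reads with BCAA and 195 and 213 without. The libraries with BCAA lay above those without, a 2.91-fold rise (log2 fold change 1.54, SE 0.12, adjusted p = 5.98e-07). In CAKI-1 it had 774 and 753 with BCAA and 393 and 403 without. This was a 1.92-fold rise (log2 fold change 0.94, SE 0.10, adjusted p = 6.37e-05). The rise of CCNE1 was larger in 769-P by 0.60 on the log2 scale (SE 0.15, adjusted p = 0.0107, interaction term in limma).

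The 150 bases before the start of CCNE1 are shown because it rose in both lines together with CCNE2, whose window is not shown. The window (GRCh38.p14, chr19:29811748-29811897, forward strand) was taken at a RefSeq start and placed upstream of any annotated exon of the gene there. It is 83.3% G or C, and capitals mark the GC box GGGCGG on either strand, a motif bound by SP1-type factors.
CCNE1: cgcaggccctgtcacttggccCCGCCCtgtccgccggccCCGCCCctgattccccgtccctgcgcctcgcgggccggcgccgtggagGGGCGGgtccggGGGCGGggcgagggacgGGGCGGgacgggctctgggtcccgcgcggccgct
It holds 5 GC boxes. Of 35116 windows of 150 bases before annotated starts, which were not shifted for exons, 36.8% hold at least 1. The share of them with 5 was not counted. The CCNE1 window holds none of the E2F octamers TTTCCCGC, TTTCGCGC, TTTGCCGC and TTTGGCGC on either strand, which 1.8% of the windows hold. CCND3 also rose in both lines, and its windows without an own exon hold 1 and 0 GC boxes. That of CDKN1A, which fell in both, holds 2. Whether GC boxes bear on the effect of BCAA was not tested.

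CCNE2 (ENSG00000175305; chromosome 8, 94879770-94896678, reverse strand) rose in both lines and was the member with the largest rise in CAKI-1. In 769-P it had 826 and 777 normalised reads with BCAA and 216 and 317 without. Relative to their mean, the 2 libraries without BCAA were further apart than those of any other called member in that line, yet both lay far below the libraries with BCAA (3.01-fold, log2 fold change 1.61, SE 0.15, adjusted p = 4.03e-06). In CAKI-1 it had 337 and 364 with BCAA and 86.5 and 93.9 without. This was a 3.88-fold rise (log2 fold change 1.94, SE 0.16, adjusted p = 1.24e-05). The difference between the lines was -0.33 on the log2 scale and did not pass the test (95% confidence interval -0.84 to 0.17, adjusted p = 0.359). Of the exon bases of CCNE2, 37.1% are also exon of genes on the opposite strand, among them INTS8, and these reads cannot be told apart without the strand setting. INTS8 had a log2 fold change of 0.60 in 769-P (adjusted p = 3.74e-06) and 0.13 in CAKI-1 (adjusted p = 0.249), smaller than that of CCNE2 in each line.

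CDKN1A (ENSG00000124762; chromosome 6, 36676460-36687339, forward strand) encodes p21, an inhibitor of CDK2 complexes. In 769-P it had 23398 and 23326 normalised reads with BCAA and 33040 and 33675 without. It decreased by 30.0% (log2 fold change -0.51, SE 0.04, adjusted p = 4.3e-07), with both libraries with BCAA below both without. In CAKI-1 it had 15800 and 16760 with BCAA and 23932 and 22549 without. There too it decreased, by 29.9% (log2 fold change -0.51, SE 0.06, adjusted p = 0.000124), again with no overlap. The effect differed between the lines by less than 0.001 on the log2 scale, with a 95% confidence interval from -0.15 to 0.14 (adjusted p = 0.999, interaction term in limma). Of the exon bases of CDKN1A, 4.79% are also exon of DINOL on the opposite strand.

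CDKN1B (ENSG00000111276; chromosome 12, 12715058-12722371, forward strand) encodes p27, and its fold change was the smallest among the called members of 769-P. In 769-P it had 3266 and 3284 normalised reads with BCAA and 2744 and 2837 without, a rise of 17.4% (log2 fold change 0.23, SE 0.05, adjusted p = 0.00376). In CAKI-1 it had 3005 and 2979 with BCAA and 3512 and 3185 without. There the libraries with BCAA lay below those without, and the difference did not pass the test (log2 fold change -0.16, SE 0.07, adjusted p = 0.123). The effect in 769-P exceeded that in CAKI-1 by 0.39 on the log2 scale (SE 0.08, adjusted p = 0.0041, interaction term in limma). Single libraries decided both calls. With the spread taken from the remaining 7 libraries, leaving out the first 769-P library without BCAA gave 0.21 with an adjusted p of 0.0592, and leaving out the second CAKI-1 library without BCAA gave -0.23 with an adjusted p of 0.0319.

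CDKN2C (ENSG00000123080; chromosome 1, 50960745-50974633, forward strand), which encodes the INK4 inhibitor p18, showed the largest rise of the members in 769-P. In 769-P it had 695 and 799 normalised reads with BCAA and 132 and 113 without. All values with BCAA were several times those without, a 6.12-fold rise (log2 fold change 2.60, SE 0.13, 95% confidence interval 2.31 to 2.90, adjusted p = 2.35e-08), and 99.6% of the genes tested in 769-P had a lower or equal log2 fold change. In CAKI-1 it had 1417 and 1157 with BCAA and 767 and 724 without. This was a 1.73-fold rise (log2 fold change 0.78, SE 0.10, adjusted p = 0.000329). The rise in 769-P exceeded that in CAKI-1 by 1.82 on the log2 scale (SE 0.17, adjusted p = 7.54e-06, interaction term in limma). In RPM, CDKN2C in 769-P was at 0.133 of its CAKI-1 level without BCAA (0.118 to 0.149 over pairs of libraries) and at 0.473 of it with BCAA (0.396 to 0.566).

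CDKN2B (ENSG00000147883; chromosome 9, 22002903-22009363, reverse strand), which encodes p15, was expressed in 769-P at 876 and 869 normalised reads with BCAA and 825 and 827 without. The libraries with BCAA lay slightly above those without, and the difference did not pass the test (log2 fold change 0.08, 95% confidence interval -0.09 to 0.25, adjusted p = 0.461). CDKN2A (ENSG00000147889; chromosome 9, 21967753-21995301, reverse strand) encodes p16INK4a and p14ARF from separate first exons, and its reads count transcripts of both together. It was barely expressed in 769-P, with 42 and 40 reads with BCAA and 16 and 20 without, or 31.8 and 34.2 normalised reads against 19.9 and 24.5. Its log2 fold change of 0.56 did not pass the test (95% confidence interval -0.28 to 1.40, adjusted p = 0.29). CDKN2A and CDKN2B were the 2 members not called in 769-P.

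Neither CDKN2A nor CDKN2B was listed in CAKI-1. Every listed gene in that table had at least 2 reads over the 4 libraries, which together held 160109281 reads on listed genes. In 769-P, with 199279137 reads, CDKN2B had 664 to 1155 reads in each library. The antisense gene of the locus, CDKN2B-AS1, was not listed in CAKI-1 either and had 8 to 16 reads per library in 769-P, and CDKN2A-DT was listed in neither line. Of the exon bases of CDKN2A, 7.88% are also exon of CDKN2B-AS1, on the opposite strand.

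The genes on either side of the INK4 locus were expressed in CAKI-1. MTAP, a methionine salvage enzyme whose start lies 206.8 kb from that of CDKN2B, had 2636 to 4468 reads per CAKI-1 library, or 5.82 to 6.56 RPKM. DMRTA1, 437.5 kb away on the other side, had 527 to 856 reads, or 2.75 to 3.69 RPKM. In 769-P these were lower, at 2.0 to 2.17 RPKM for MTAP and 0.198 to 0.408 for DMRTA1. Further out, KLHL9 reached 14.0 to 14.4 RPKM in CAKI-1 and 6.66 to 7.35 in 769-P, and FOCAD 4.84 to 6.24 and 1.68 to 2.76. MLLT3 lay at 6.17 to 6.98 in CAKI-1 and 8.68 to 8.97 in 769-P. HACD4 had 1085 to 1709 reads in CAKI-1 and 9 to 21 in 769-P, so some neighbours had more RNA in CAKI-1 and others in 769-P. IFNE, with 6 to 15 reads in 769-P and 8 to 12 in CAKI-1, and ELAVL2, with 69 to 292 and 23 to 55, were low in both. Of the 10 neighbours, 9 were tested in 769-P and 2 rose (FOCAD, log2 fold change 0.60, and ELAVL2, 1.02), and 8 were tested in CAKI-1 and 1 rose (FOCAD, 0.25). None fell in either line, and the median log2 fold change was -0.01 and 0.09. By comparison, 20.3% of all genes tested rose in 769-P and 10.8% in CAKI-1. Copy number and DNA methylation were not measured in these samples.

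**Figure D2:**
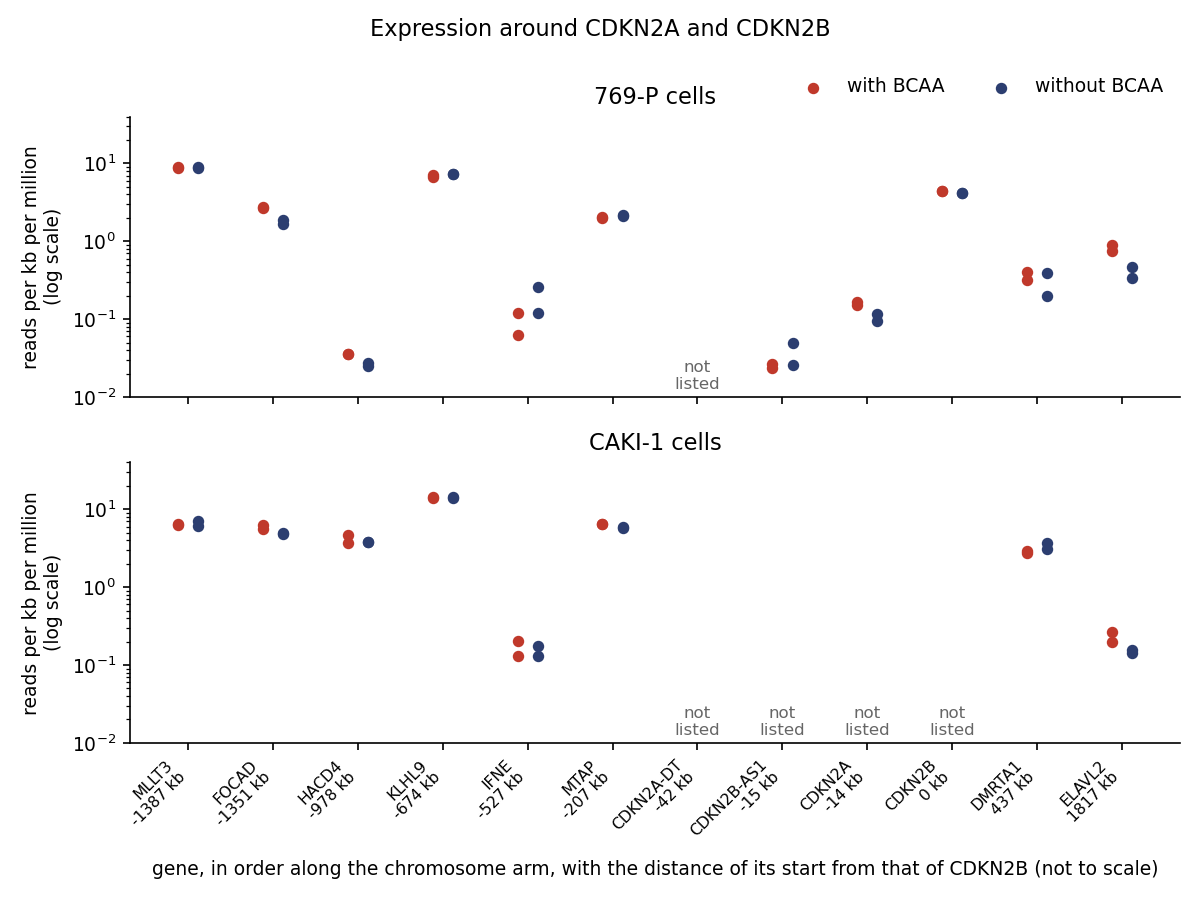
RPKM on a log scale (y axis) for genes of chromosome arm 9p in their order along it, with the distance of each start from that of CDKN2B under the name (x axis, not to scale), in 769-P (upper panel) and CAKI-1 (lower panel), 1 point per library, red with BCAA and blue without. In CAKI-1, the 4 entries from CDKN2A-DT to CDKN2B are not listed while MTAP and DMRTA1 on either side are expressed, and in 769-P CDKN2B reaches 4.15 to 4.48 RPKM.

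The windows before the starts of the INK4 members are shown because these genes differed in presence and in response. Each covers 150 bases at a RefSeq start (GRCh38.p14), placed upstream of any annotated exon of the gene there, with GC boxes (GGGCGG on either strand) in capitals. That of CDKN2A is chr9:21995325-21995474 on the reverse strand, before the start used by p14ARF. That of CDKN2B is chr9:22009364-22009513 on the reverse strand. That of CDKN2C is chr1:50960595-50960744 on the forward strand, before the first of its starts.
CDKN2A: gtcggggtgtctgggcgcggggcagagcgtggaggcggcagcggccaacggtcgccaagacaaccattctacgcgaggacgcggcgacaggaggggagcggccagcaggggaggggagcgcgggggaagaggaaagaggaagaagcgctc
CDKN2B: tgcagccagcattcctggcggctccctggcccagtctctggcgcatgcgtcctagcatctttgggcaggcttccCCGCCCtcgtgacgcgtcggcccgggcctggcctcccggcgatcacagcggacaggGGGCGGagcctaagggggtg
CDKN2C: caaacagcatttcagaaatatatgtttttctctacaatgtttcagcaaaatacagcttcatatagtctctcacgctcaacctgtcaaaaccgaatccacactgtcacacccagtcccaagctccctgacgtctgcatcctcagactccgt
The CDKN2B window holds 2 GC boxes and those of CDKN2A and CDKN2C hold 0. The other RefSeq starts of CDKN2A and CDKN2C were not examined, because an exon of the same gene lay within their windows. The CDKN2A and CDKN2B windows are 70.7% and 71.3% G or C and that of CDKN2C is 44%. None of the 3 holds an E2F octamer of the 4 given above.

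Set side by side, the effects of BCAA differed between the lines for 5 of the 7 members tested in both, 4 further up in 769-P (CCND3, CCNE1, CDKN1B and CDKN2C) and 1 further down (CCND1). Of all 19406 genes tested in both lines, 21.1% differed, 10.9% further up and 10.1% further down in 769-P. CCNE2 and CDKN1A did not pass this test. Called as higher in both lines were 4 of the 7 members, beside 8.53% of all genes, and called as lower in both was 1, beside 5.83%. Depth moved with condition in 769-P, and after all libraries were thinned to 30979773 reads the members called there were again 5 higher and 2 lower.

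**Figure D3:**
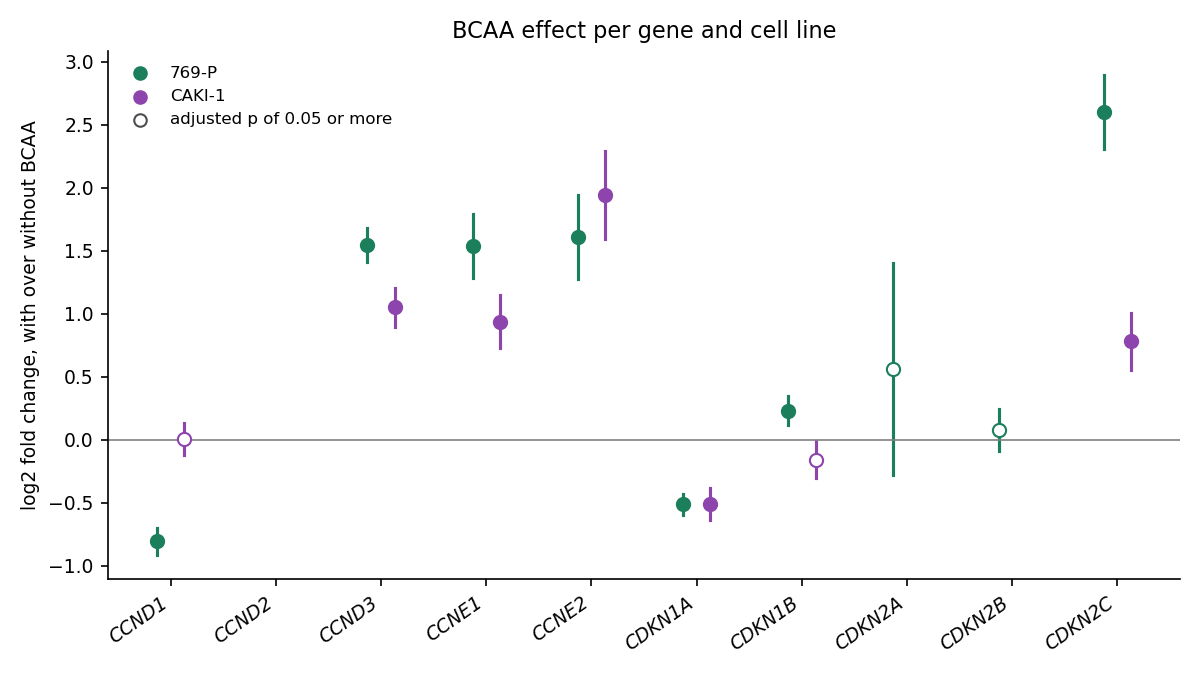
Log2 fold change of normalised reads, with over without BCAA (y axis), for each member (x axis) in 769-P (green) and CAKI-1 (purple), with 95% confidence intervals from limma as bars and open circles where the adjusted p was 0.05 or more. CDKN2C reaches 2.60 in 769-P and 0.78 in CAKI-1, the circles of CDKN1A coincide at -0.51, and CCND1 lies at -0.81 in 769-P and at 0.01 in CAKI-1.

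Per kilobase of exon, CDKN1A and CCND1 stood above all other members in each group. In 769-P with BCAA, CDKN1A was at 159 ± 1.94 (SD, n = 2) and CCND1 at 149 ± 9.67 RPKM, and without BCAA the order was turned, with CCND1 at 257 ± 2.0 and CDKN1A at 224 ± 1.22. This turn depends on the division by exon length. In mean normalised reads of 769-P, CCND1 stood above CDKN1A with BCAA (34698 against 23362) and without (60610 against 33358). In CAKI-1, CDKN1A led in both conditions, at 136 ± 6.21 with BCAA and 192 ± 9.20 without, followed by CCND1 at 80.9 ± 5.21 and 79.6 ± 1.60. CDKN1B came next in each group, between 20.3 and 30.0. The lower ranks were held in 769-P with BCAA by CCND3 (11.3), CCNE1 (4.82), CDKN2C (4.67), CDKN2B (4.46), CCNE2 (3.78) and CDKN2A (0.158), where the ranges of CCNE1 and CDKN2C, and of CDKN2C and CDKN2B, overlapped. Without BCAA the order there was CDKN2B (4.17), CCND3 (3.81), CCNE1 (1.64), CCNE2 (1.24), CDKN2C (0.754) and CDKN2A (0.105), with no overlap between neighbours. In CAKI-1 the order was the same in both conditions, namely CDKN2C (9.88 with and 5.66 without BCAA), CCND3 (9.54 and 4.55), CCNE1 (7.63 and 3.93), CCNE2 (2.03 and 0.517) and CCND2, and there CDKN2C and CCND3 overlapped with BCAA.

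The composition of the families is given per kilobase of exon. CCND3 made up 7.05% ± 0.33 (SD, n = 2) of the D-type cyclins with BCAA and 1.46% ± 0.05 without in 769-P, and 10.6% ± 0.69 and 5.41% ± 0.21 in CAKI-1. CCND1 made up nearly all the rest. Among the INK4 members in 769-P, CDKN2C went from 15.0% ± 1.48 without BCAA to 50.2% ± 2.56 with BCAA. CDKN2B went from 82.9% ± 1.15 to 48.1% ± 2.57. In CAKI-1, CDKN2C was the only INK4 member listed. CDKN2D, an INK4 gene outside the members, is left out of these shares. It lay at 1.81 to 2.26 RPKM in 769-P and at 1.55 to 2.50 in CAKI-1. CDKN2C was below this in 769-P without BCAA, at 0.69 to 0.82 RPKM. Among the 5 inhibitors in the set, CDKN1A held 89.8% ± 0.03 without and 82.6% ± 0.26 with BCAA in 769-P. In CAKI-1 it held 84.3% ± 0.30 and 78.6% ± 1.42. The E-type cyclins differed between the lines in their makeup. CCNE1 held 57.3% ± 5.09 of them without BCAA and 56.1% ± 0.09 with BCAA in 769-P, groups that overlapped, and 88.4% ± 0.43 and 79.0% ± 1.23 in CAKI-1. These shares were not tested, since 2 libraries against 2 cannot pass an exact test.

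**Figure D4:**
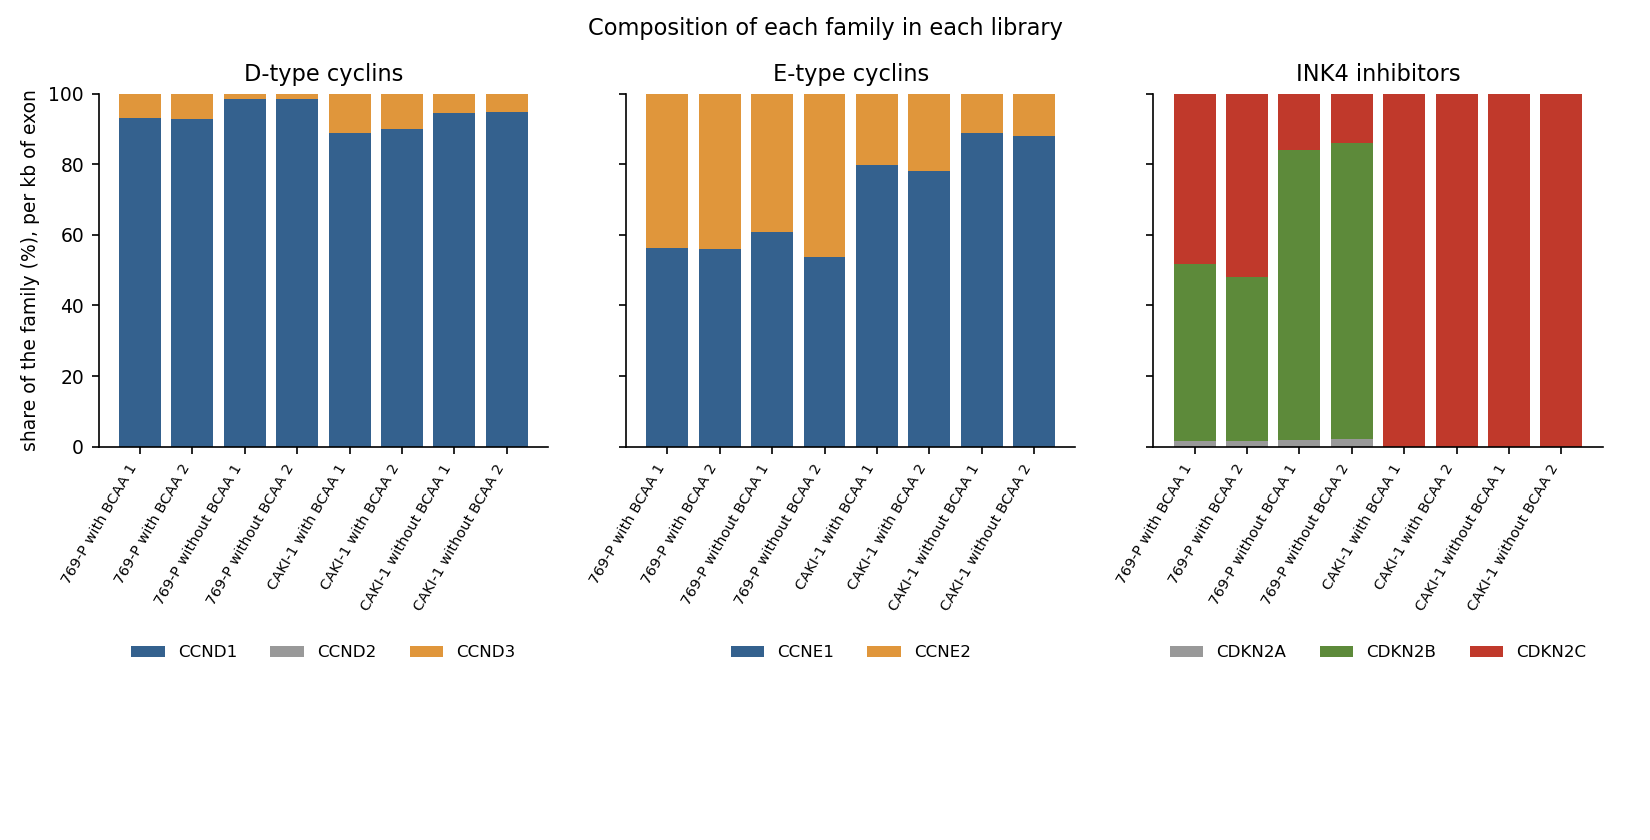
Share of each gene in its family as a percentage of the summed reads per kb of exon (y axis, from 0) in each of the 8 libraries (x axis), for the D-type cyclins, the E-type cyclins and the INK4 inhibitors among the members. CCND1 fills 88.9% to 98.6% of the D-type cyclins in every library, and CDKN2C grows against CDKN2B with BCAA in 769-P. Of the INK4 members, CAKI-1 holds CDKN2C alone. CDKN2D, an INK4 gene outside the members, is not drawn.

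Between the lines, CCND1 and CCNE2 were higher in 769-P than in CAKI-1 in both conditions. In RPM the CCND1 ratio of 769-P to CAKI-1 was 3.23 without BCAA (3.17 to 3.29 over pairs of libraries) and 1.84 with BCAA (1.68 to 2.02). CCNE2 was at 2.40 (1.89 to 2.95) and 1.86 (1.75 to 1.98), and CDKN1A was at 1.17 in both. CCNE1 and CDKN1B were lower in 769-P, CCNE1 at 0.417 without and 0.632 with BCAA and CDKN1B at 0.678 and 0.891. CCND3 was at 0.838 without BCAA and at 1.18 with BCAA, so the line with the higher level changed with condition. On the deposited values, scaled within each table, CCND3 was instead at 1.03 without BCAA, where pairs of libraries ran from 0.992 to 1.07 and the lines overlapped, and at 1.45 with BCAA, and CDKN1B was at 0.833 without and 1.10 with BCAA.

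Of the kinases that G1 cyclins activate, CDK2 rose in both lines (log2 fold change 0.89 in 769-P, adjusted p = 2.73e-07, and 1.18 in CAKI-1, adjusted p = 1.14e-05). CDK4 passed in neither line (0.12 and -0.03), although 43.2% of its exon bases are also exon of TSPAN31 on the opposite strand. CDK6 did not pass in 769-P (0.13, adjusted p = 0.0615) and rose in CAKI-1 (0.31, adjusted p = 0.048). CDK7, a gene of the CDK-activating kinase, had few reads, 16 to 51 per library in 769-P and 7 to 33 in CAKI-1. With the CDK-activating kinase genes CDK7, CCNH and MNAT1, 2 of 6 rose and none fell in each line, with medians of 0.26 and 0.14. Beside this count and those of the lists below, 20.3% of all genes tested rose and 18.2% fell in 769-P. In CAKI-1 these shares were 10.8% and 9.05%. Among genes with a mean of at least 100 normalised reads, 63% passed in either direction in 769-P and 34.2% in CAKI-1.

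Among the pocket proteins, the substrates of these kinases, RB1 did not pass in 769-P (log2 fold change -0.05) and rose in CAKI-1 (0.29, adjusted p = 0.00603). RBL1 rose in both lines, by 0.57 in 769-P and 0.72 in CAKI-1, and RBL2 fell in CAKI-1 by 0.25 on the log2 scale. Among genes that act on the inhibitory tyrosine phosphorylation of CDK2, 2 were examined. The phosphatase gene CDC25A rose in both lines (1.83 and 2.22), and the kinase gene WEE1 rose in 769-P (0.56) and did not pass in CAKI-1 (0.18). Of 6 further inhibitors and cyclin relatives, 3 rose and none fell in 769-P, and 1 rose and 1 fell in CAKI-1. CDKN3, which encodes a CDK phosphatase, rose most in each (1.29 and 0.78), and CCNG2 fell in CAKI-1 by 0.32 on the log2 scale. Their medians were 0.40 and 0.00.

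Of 7 genes for ubiquitin ligases that degrade G1 cyclins or p27, 6 rose and none fell in 769-P and 4 rose and none fell in CAKI-1, with medians of 0.32 and 0.24. SKP2, the F-box protein that recognises p27, rose most, with log2 fold changes of 1.47 (adjusted p = 1.01e-08) and 1.32 (adjusted p = 1.66e-05). The 8 cyclins and markers of S phase, G2 and mitosis rose in both lines without exception, with medians of 1.56 in 769-P and 1.26 in CAKI-1. CCNA2, which encodes cyclin A2, led them with 2.11 and 1.86. These genes mark proliferating cells, and their part in the changes of the members was not tested.

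Of 15 transcriptional regulators known to act on members, 5 rose and 6 fell in 769-P, and 5 rose and 5 fell in CAKI-1, with medians of -0.06 and -0.11. E2F2, an activator E2F, rose most, with log2 fold changes of 2.77 (adjusted p = 2.81e-08) and 2.99 (adjusted p = 0.000157). JUN, an AP-1 subunit, fell most in 769-P (-0.98, adjusted p = 1.21e-08) and did not pass in CAKI-1 (-0.17, adjusted p = 0.065). Its effect differed between the lines by -0.81 on the log2 scale (adjusted p = 5.53e-06, interaction term in limma). FOXO1, a forkhead factor, fell most in CAKI-1 (-0.62, adjusted p = 0.0434) and did not pass in 769-P (-0.06, adjusted p = 0.606).

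**Figure D5:**
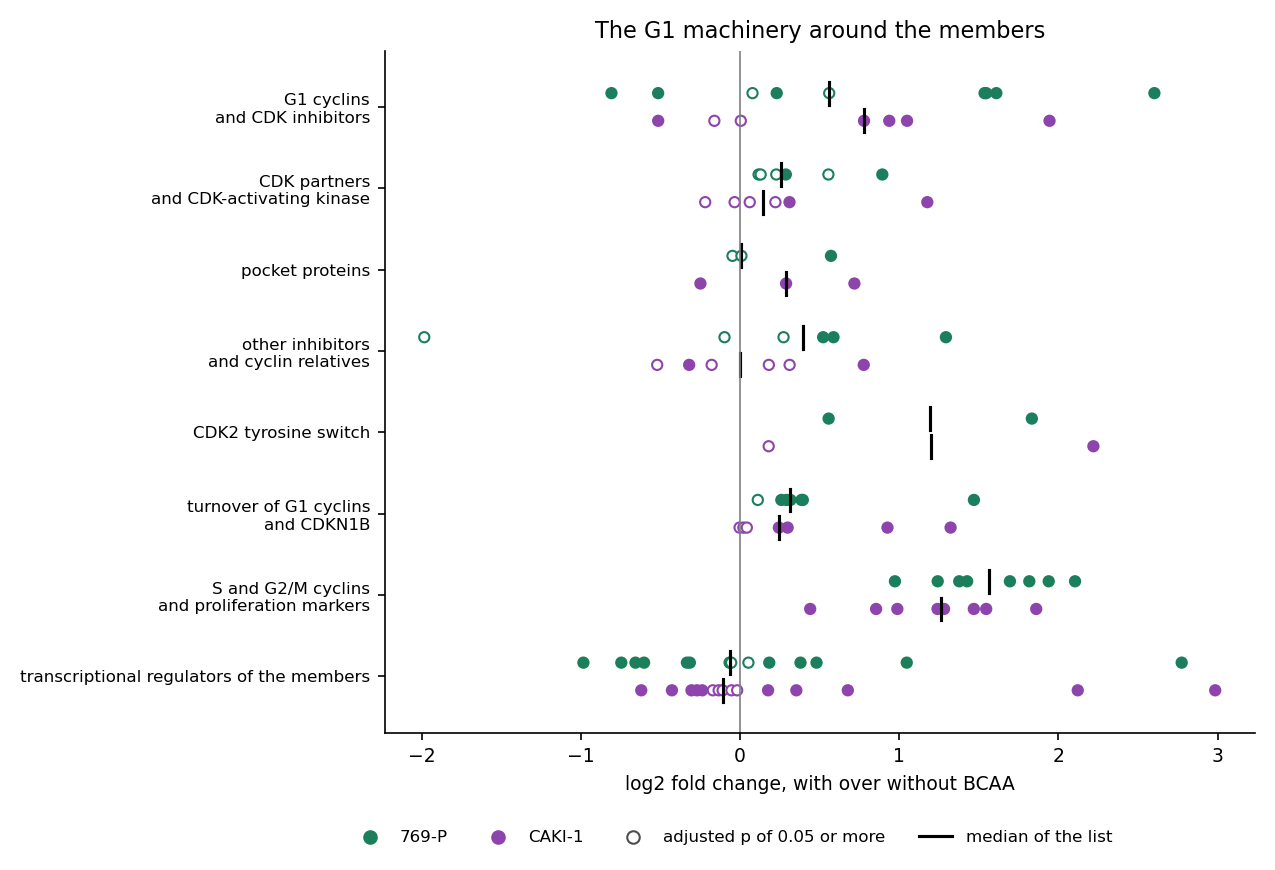
Log2 fold change, with over without BCAA (x axis), of each gene in the members and 7 further lists of the G1 machinery (y axis), in 769-P (green) and CAKI-1 (purple), with open circles where the adjusted p was 0.05 or more and a black bar at the median of each list. The S and G2/M list lies wholly to the right of 0 in both lines, with medians of 1.56 and 1.26, whereas the regulators spread to both sides.

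The genes whose pattern over the 8 libraries was most like that of 2 members were sought by the root mean square distance of log2 values centred within each table, over 19405 other genes. For CCNE2, the called member with the largest mean rise, these were ENSG00000256663, which has no symbol in the table used, at a distance of 0.13, ASF1B, a histone chaperone, at 0.14, and ERCC6L, a mitotic DNA translocase, at 0.15. For CDKN1A, the called member with the largest mean fall, they were EXD2, DDX50 and EIF3D, each at a distance of 0.02.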

How the data were processed

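RNA from 769-P and CAKI-1 cells, with or without BCAA for 16 h, was sequenced in 8 libraries, and samples were grouped by cell line and treatment as labelled. The submitters' processing notes name Trim Galore, TopHat2 2.1.0, SAMtools 1.3.1, HTSeq 0.6.0, DESeq, DESeq2 and hg38. The annotation and the strand setting are not given in the sources used here. The authors deposited a signal per gene and library in 1 table per cell line, namely reads divided by a size factor. All values (100%) were whole multiples of 1 read within 0.001, so reads were recovered, and the divisors are median-of-ratios size factors of each table. Replicates differed by more than sampling noise (chi-square per degree of freedom 3.36 to 12.9).

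Identifiers were matched to symbols for 25032 genes of 769-P and 23881 of CAKI-1. Gene positions and exon lengths come from GENCODE 29 (GRCh38). Promoter windows come from RefSeq, and those of members were placed upstream of any GENCODE 29 exon of the gene there. Genes with a mean of at least 1 were tested with limma 3.58.1 in R 4.3.3 (lmFit, eBayes with trend) on log2(value + 1), within each line and with no replicate block and p-values adjusted by Benjamini-Hochberg. Fold changes on this scale understate those of low genes. The difference between lines was the interaction term over the 8 libraries. Alternatives changed the pseudocount, filter, scaling, threshold, block, spread and libraries, or used edgeR 4.0.16 and DESeq2 1.42.0 on recovered reads. The limma fit within each line was also run on simulated reads with the same spread for all genes, and no result rests on it. Confidence intervals are 95% and cover these libraries. All 10 members are named, and of the further lists each line's called gene with the largest rise and fall, with CDK2, CDK4, CDK6, RB1 and every 9p neighbour. WEE1, CDKN2D, LTO1 and INTS8, and JUN and FOXO1 in the line where they did not pass, were named after their values were seen. The members and lists were chosen with earlier results of these data known.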

Additional observations from a re-analysis of the deposited data

Results flagged for a closer look

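The effect of BCAA differed between 769-P and CAKI-1 for 5 members by the interaction term in limma (Benjamini-Hochberg adjusted p under 0.05). As 769-P minus CAKI-1 on the log2 scale, the difference was 1.82 for CDKN2C (adjusted p = 7.54e-06) and -0.81 for CCND1 (adjusted p = 1.25e-05). It was 0.50 for CCND3 (adjusted p = 0.00128), 0.39 for CDKN1B (adjusted p = 0.0041) and 0.60 for CCNE1 (adjusted p = 0.0107). For CDKN2C, CCND3 and CCNE1, both lines rose and 769-P rose further. For CCND1, both libraries with BCAA lay below both without in 769-P, whereas the groups overlapped in CAKI-1. For CDKN1B, the libraries with BCAA lay above those without in 769-P and below them in CAKI-1. The CDKN1B effect in CAKI-1 did not pass the test (adjusted p = 0.123 in limma), and single libraries decided its call in each line. Libraries with and without BCAA did not overlap for 67% of all genes tested in 769-P and 57.7% in CAKI-1. Of all 19406 genes tested in both lines, 21.1% differed by the interaction term.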

How the results depend on the processing

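Under other pseudocounts, filters, scalings, spreads, tools and thinned reads, each member kept its call in each line and in the test between lines. Signs turned only for effects near 0. CCND1 in CAKI-1 was -0.0098 with median centring and -0.006 with edgeR, and the CDKN1A difference between lines was 0.052 with quantile normalization, 0.0092 with edgeR and 0.0066 with DESeq2. When a 1.5-fold change was also required, 1984 genes were higher and 1911 lower in 769-P, 725 and 481 in CAKI-1, and 917 and 927 further up and down in 769-P, with 1 member lower in 769-P, 0 in CAKI-1 and 2 further up in 769-P. The members short of this change were CDKN1A in both lines, CDKN1B in 769-P, and CCND3 and CDKN1B in the test between lines. On the recovered reads, edgeR called 4874 genes higher and 3920 lower in 769-P and 2237 and 2160 in CAKI-1. With quantile normalization, 1417 genes were higher in CAKI-1. Not divided by exon length, the share of CCNE1 among the E-type cyclins of 769-P was 42.5% with BCAA in place of 56.1%. Leaving out 1 library leaves 1 residual degree of freedom. In 769-P, 1173 to 1632 genes were then higher and 658 to 1456 lower, with 3 to 4 members higher and 1 to 2 lower. In CAKI-1, limma called 0 genes and 0 members in either direction (4084 to 5590 genes at an unadjusted p under 0.05). CCND1 in CAKI-1 ranged from -0.0562 to 0.0672 and the CDKN1A difference from -0.0432 to 0.0426. With the spread of the remaining 7 libraries, which assumes that the lone library varies like the others, only CDKN1B changed its call, so that 4 to 5 members were higher in 769-P and 1 to 2 lower in CAKI-1, and CCND1 in CAKI-1 took -0.0562 and -0.021 without the second library with and the first without BCAA. Same-numbered libraries did not deviate together (correlation -0.10 in each line), and with the replicate block 4692 genes were higher and 4233 lower in 769-P and 2133 and 1803 in CAKI-1, with the members' counts as before. With the pairing crossed in CAKI-1, 2893 genes were higher and 2588 lower, with 4 members and 1. The thinned reads, the 7-library spread and the crossed pairing were chosen after seeing the data. The depth limits CDKN2A in 769-P, with 16 to 42 reads, and CCND2.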
